A study of Mus musculus with 20 samples.

Results

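Neurogenic wells of the developing mouse habenula, an epithalamic relay with a medial and a lateral division, were described from embryonic day (E) 11 to E15. A well was counted as neurogenic where at least 3 of 5 genes, Nhlh1, Neurod4, St18, Ebf2 and Neurog2, had at least 1 count. This rule gave 252 of the 1725 kept wells on 7 plates, of 4811 kept wells on all 20 plates of the study. The wells were chosen under the working name of neurogenic intermediate progenitors. Because transcripts of the G2 and M phases were lower in them than in the other wells (values below), they are called neurogenic wells here, after the rule, and not progenitors. The difference was very small on E11 plate 1 and E15 plate 2, and transcripts of the S phase did not pass their test.

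Single cells were sequenced with Cel-seq2, which counts unique molecular identifiers (UMIs) at transcript 3′ ends, in plates of 384 wells, and the plate was the replicate. The groups were 2 plates of E11, 1 of E12, 2 of E13 and 2 of E15. All 7 plates came from the labelled habenula of the Brn3a-tauLacZ line, a lacZ reporter line named for Brn3a, the older name of Pou4f1, and no plate without the reporter was used at these stages. The labels name no treatment and do not say how many embryos a plate pooled, how many reporter copies they carried, or how cells were sorted. They do not say whether the plates of a stage came from separate litters either, so p-values measure the spread between plates, which may be technical.

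Neurons arise from radial progenitors through a cascade of basic helix-loop-helix (bHLH) transcription factors. Neurog2 starts the cascade, and Neurod4, Nhlh1 and Neurod1 act after it, while Ebf2 and the zinc finger factor St18 come on as the cell leaves the cycle. Cells at this step present Notch ligands to their neighbours, and Notch signalling in those neighbours keeps them undifferentiated through Hes genes. In the thalamus and habenula, a Tcf7l2 and Pou4f1 programme then sets the neuron's identity.

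The neurogenic wells numbered 45 of 309 kept wells (14.6%) and 68 of 345 (19.7%) on the E11 plates and 20 of 291 (6.87%) on the E12 plate. They numbered 29 of 153 (19.0%) and 50 of 137 (36.5%) at E13, and 32 of 188 (17.0%) and 8 of 302 (2.65%) at E15. The exact 95% Clopper-Pearson intervals, which cover counting error only, were 13.1 to 26.1% and 28.4 to 45.1% on the E13 plates, and 11.9 to 23.2% and 1.15 to 5.15% on the E15 plates. At both stages the intervals of the 2 plates did not overlap. Neurogenic wells had fewer counts than the other wells on 4 plates and more on 3, with a ratio of median counts from 0.663 on E11 plate 2 to 1.503 on E15 plate 2. Wells with at least 5000 UMIs were also thinned to 5000 before the rule was applied. Those that met it were 20 of 284 and 40 of 301 (E11), 12 of 257 (E12), 18 of 106 and 34 of 122 (E13), and 14 of 153 and 4 of 252 (E15). Wells with fewer UMIs were left out here and from all values at 5000 UMIs below. On E13 plate 1 they were 43 of 124 other wells and 4 of 29 neurogenic wells.

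The 5 genes contributed unequally, and their values are a description because the wells were selected on them, by whether each had a count. Nhlh1 had a count in 88.5% of neurogenic wells, Ebf2 in 86.9%, St18 in 80.2%, Neurog2 in 48.8% and Neurod4 in 47.6%. In the other wells, Neurod4 had a count in 2.58%, Neurog2 in 4.96%, St18 in 13.1%, Nhlh1 in 21.3% and Ebf2 in 47.9%. Ebf2 separated the classes least at E11, where 86.0% and 86.6% of the other wells held it. These shares are of wells at their full depth, with medians of 9114 to 12084 counts in neurogenic and 8038 to 15336 in other wells over the plates. The share of neurogenic wells with Neurog2 was 24.4% and 20.6% on the E11 plates, 70.0% on the E12 plate, 72.4% and 88.0% on the E13 plates and 53.1% and 25% on the E15 plates. The commonest set was Nhlh1, St18 and Ebf2, in 57 wells, of which 38 were at E11, and 26 wells held all 5 genes, of which 17 were at E13. At the threshold, wells with 3 of the 5 genes summed to 981 ± 289 counts per 1e6 counts (CPM) of the 5 genes (mean ± SD, n = 6 plates), and wells with 2, just outside, to 389 ± 135 CPM (n = 7 plates).

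**Figure D1:**
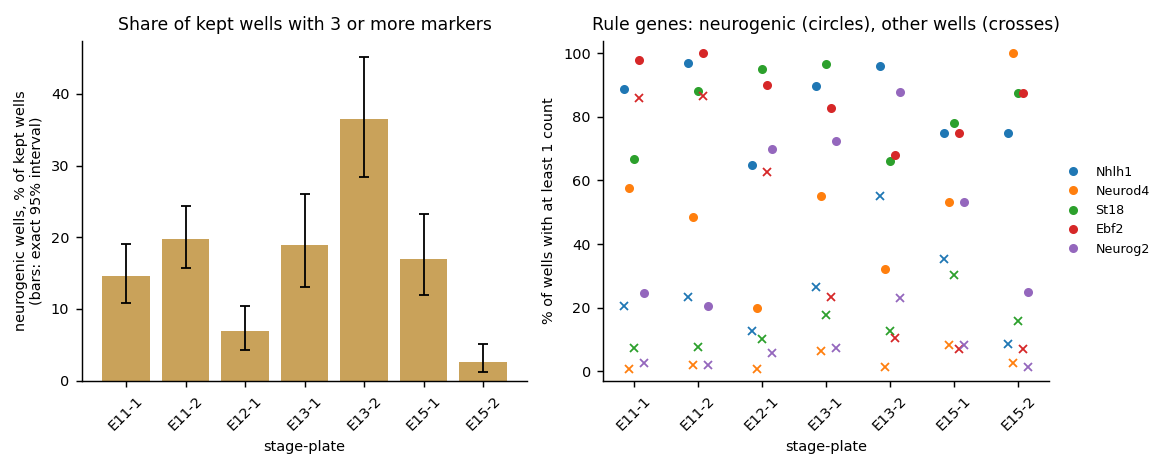
Left, neurogenic wells as a percentage of the kept wells of each plate, with exact 95% intervals as bars. Right, the percentage of neurogenic wells (circles) and of other kept wells (crosses) with at least 1 count of each rule gene, by plate. The share runs from 2.65% on E15 plate 2 to 36.5% on E13 plate 2, and Ebf2 is also frequent in the other wells at E11 and E12.

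The plates carried the labelled tissue's factors in the neurogenic wells. Tcf7l2, which marks thalamic and habenular neurons, was at 4034 and 4558 (E11), 3367 (E12), 3228 and 2038 (E13), and 5224 and 3658 (E15) CPM. Pou4f1 was at 782 and 597 (E11), 257 (E12), 322 and 205 (E13), and 387 and 874 (E15) CPM. Both were counted on every plate, and whether cells of neighbouring thalamus were among them was not tested. E13 plate 2 stood apart: its neurogenic wells held 649 CPM of 8 vascular markers, 182 of 8 mesenchyme markers and 731 of 8 ependymal and choroid markers, against at most 49.3, 54.3 and 19.7 CPM on the other 6 plates. Ttr, the choroid plexus transporter gene, had a count in 49 of its 50 neurogenic wells. The other wells of that plate held 1386, 547 and 5689.9 CPM of the same lists, and its neurogenic wells held 25.6 CPM of 8 microglia markers, against 5.37 to 18.4 CPM on the other 6 plates. E15 plate 2 rests on 8 neurogenic wells. Plate sums of neurogenic wells ran from 108940 to 741282 counts. Of the well barcodes, 381 occur on all 7 plates, and 46 hold a neurogenic well on 2 or more of them.

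Against the other kept wells of the same plate, neurogenic wells had higher levels of 7 of 16 other bHLH factors, Neurod1, Bhlhe22 and Nhlh2 among them, and lower levels of 2. Of 19 Notch pathway genes tested, 4 were higher, Dll3, Mfng and Mib1 among them, and 2 lower. Of 22 genes of a neurogenic programme, 16 were higher and 0 lower. Of 20 postmitotic neuron genes, 3 were higher and 4 lower. Levels of G2 and M phase transcripts and of several markers of non-neural cells were lower. The summed counts of each class were compared with edgeR's quasi-likelihood test with the plate as a block, and with Benjamini-Hochberg adjustment over all genes tested. Of 12034 genes, 975 passed an adjusted p of 0.05 (8.1%), of which 409 were higher (3.4%) and 566 lower (4.7%). The 5 rule genes took no part. Genes that vary together with them differ through the choice of wells, so these counts describe the wells. The count was 587 without E11 plate 2, 1010 without E13 plate 2 and E15 plate 2, and 327 with the threshold at 2 genes. Without the plate block it was 110. By DESeq2, 441 genes were higher and 406 lower. The median log2 fold change of all genes was -0.064.

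Among the other bHLH factors, 7 of the 16 tested were higher and 2 lower (median log2 fold change 0.59). Neurod1, which drives the late steps of neuron differentiation, was at 506 and 639 (E11), 321 (E12), 395 and 303 (E13), and 312 and 257 (E15) CPM in neurogenic wells. The level in other wells was 89.6 and 93.9 (E11), 60.3 (E12), 91.0 and 83.7 (E13), and 243 and 343 (E15) CPM. It was higher on 6 of 7 plates and lower on E15 plate 2 (edgeR, log2 fold change 1.73, SE 0.30, adjusted p = 0.00186). Bhlhe22, a repressor in the Olig family, was higher on 7 of 7 plates, at 28.6 to 91.8 against 2.42 to 29.3 CPM (edgeR, log2 fold change 2.77, SE 0.37, adjusted p = 2.84e-04). Nhlh2, the paralogue of the rule gene Nhlh1, was also higher on 7 of 7, at 662 to 972 against 349 to 857 CPM (edgeR, log2 fold change 0.61, SE 0.14, adjusted p = 0.01). Of the E proteins, the common dimer partners of these factors, Tcf12 (log2 fold change 0.80, SE 0.11) and Tcf4 (0.79, SE 0.14) were higher. Tcf3, another E protein, did not pass. Tcf12 did not overlap between the classes, at 395 to 533 against 229 to 320.2 CPM. Hes6, which antagonises Hes1, was higher (0.85, SE 0.16), and so was Neurog1 (1.96, SE 0.50), which had 0 counts in neurogenic wells at E15. Of the Id proteins, which sequester E proteins, Id3 (-1.31, SE 0.35) and Id4 (-1.53, SE 0.33) were lower on 7 of 7 plates. Id1 and Id2 did not pass. Calls were lost for Neurog1 without E11 plate 1 or E11 plate 2; Neurog1 and Id3 without E13 plate 1, and Id3 without E13 plate 2 (adjusted p from 0.0535 to 0.163, edgeR).

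In the Notch pathway, 4 of 19 tested genes were higher and 2 lower (median 0.02). Dll3, a Delta-like protein that inhibits Notch within the cell that makes it (chr7:28293553-28302238, minus strand of mm10), was at 68.0 and 127 (E11), 202 (E12), 132 and 114 (E13), and 48.3 and 91.8 (E15) CPM. The other wells held 16.9 and 17.1 (E11), 17.6 (E12), 24.7 and 17.2 (E13), and 12.9 and 7.98 (E15) CPM. The classes did not overlap, and Dll3 was higher on 7 of 7 plates (edgeR, log2 fold change 2.69, SE 0.20, adjusted p = 1.33e-06). Mfng, a glycosyltransferase that changes how Notch responds to its ligands, was at 26.6 to 70.1 against 3.52 to 31.3 CPM and higher on 7 of 7 plates (edgeR, log2 fold change 2.12, SE 0.38, adjusted p = 0.00226). Mib1, the ubiquitin ligase that lets Delta ligands signal, was at 148 to 325 against 116 to 148 CPM, with E13 plate 2 the lowest (edgeR, log2 fold change 0.88, SE 0.14, adjusted p = 8.18e-04). Hes5, a target of Notch signalling, was at 85.8 and 118 (E11), 262 (E12), 2.60 and 46.7 (E13), and 5.37 and 9.18 (E15) CPM in neurogenic wells. It was higher in them on 5 of 7 plates (edgeR, log2 fold change 1.38, SE 0.27, adjusted p = 0.00391), but against the other wells with none of the 5 genes its log2 fold change was -0.065. The ligand gene Dll1 had a log2 fold change of -0.089 (SE 0.31, adjusted p = 0.913 by edgeR), and the receptor gene Notch1 of 0.33 (SE 0.42, adjusted p = 0.716 by edgeR). Jag2 (-0.57, SE 0.16) and Notch3 (-1.11, SE 0.30) were lower. The test was no longer passed by Jag2 without E11 plate 1, E12 plate 1 or E15 plate 2, and Jag2 and Notch3 without E11 plate 2, E13 plate 1, E13 plate 2 or E15 plate 1 (adjusted p from 0.0609 to 0.156, edgeR).

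The list of a general neurogenic programme had 16 of 22 genes higher and 0 lower (median 1.03), and 16 or 17 higher when any single plate was left out. Btg2, an antiproliferative gene expressed by progenitors at their neuron-producing division (chr1:134075170-134079120, minus strand), was at 114 and 120.1 (E11), 98.8 (E12), 122 and 102 (E13), and 118 and 129 (E15) CPM. In the other wells it was at 16.7 and 21.4 (E11), 16.7 (E12), 23.3 and 24.6 (E13), and 57.2 and 33.5 (E15) CPM. The neurogenic values lay within a narrow band at every stage and above all of the others (edgeR, log2 fold change 2.18, SE 0.19, adjusted p = 1.43e-05). Insm1, a zinc finger factor of newborn neurons and basal progenitors, was at 114 and 199.7 (E11), 247 (E12), 239 and 123 (E13), and 164 and 220.5 (E15) against 37.3 to 96.0 CPM, again without overlap (edgeR, log2 fold change 1.77, SE 0.16, adjusted p = 1.58e-05). Gadd45g, a stress and cell cycle regulator of the same step, was higher on 6 of 7 plates (edgeR, log2 fold change 2.07, SE 0.37, adjusted p = 0.00235).

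Other genes of the list that were higher were Cbfa2t2, Rcor2, Srrm4, Igfbpl1 and Myt1. Cbfa2t2, a corepressor of the ETO family, was at 123 to 290.3 against 62.8 to 80.3 CPM (edgeR, log2 fold change 1.59, SE 0.17, adjusted p = 4.16e-05). Rcor2, a corepressor of the LSD1 complex, was at 164 to 247 against 54.1 to 150.4 CPM (edgeR, log2 fold change 1.25, SE 0.13, adjusted p = 3.79e-05). Neither overlapped between classes. Cbfa2t3, another corepressor of the ETO family, had a log2 fold change of 0.13 (SE 0.26, adjusted p = 0.829 by edgeR). Srrm4, which switches on neuronal microexons, had a log2 fold change of 1.44 (SE 0.15), Igfbpl1 of 1.34 (SE 0.14) and Myt1, a paralogue of the rule gene St18, of 0.92 (SE 0.12). Sox4 (0.79, SE 0.11) and Sox11 (0.57, SE 0.13), which activate neuronal genes, were also higher, and Sox11 was higher on 6 of 7 plates. The remaining genes of the list that passed were Ebf3, Pou3f2, Prox1, Scrt2, Eomes and Tbr1, with log2 fold changes from 0.79 to 3.80.

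Among genes that passed with a mean of at least 20 CPM and differed in 1 direction on all 7 plates, the 12 largest positive fold changes included the transcription factor genes Lhx1, Lhx5, Dmrta2, Dmrta1 and Bhlhe22. Lhx1, a LIM homeodomain factor (chr11:84518284-84525535, minus strand), was at 107 and 153 (E11), 93.9 (E12), 90.9 and 87.3 (E13), and 10.7 and 9.18 (E15) CPM. The level in other wells was 16.9 and 5.78 (E11), 2.42 (E12), 14.5 and 9.85 (E13), and 6.13 and 0.307 (E15) CPM. The levels in neurogenic wells were above the range of the other wells over all plates up to E13, and within that range at E15 (edgeR over all 7 plates, log2 fold change 3.40, SE 0.35, adjusted p = 3.79e-05). Its relative Lhx5 was at 16.3 and 16.2 (E11), 98.7 (E12), 88.3 and 143 (E13), and 56.4 and 36.7 (E15) CPM (edgeR, log2 fold change 2.44, SE 0.29, adjusted p = 1.02e-04), and overlapped with the other wells at 1.84 to 33.7 CPM. Dmrta2, a doublesex-related factor of the dorsal forebrain, was at 68.0 and 55.4 (E11), 109 (E12), 62.3 and 136 (E13), and 75.2 and 147 (E15) CPM, above the range of 2.76 to 27.1 CPM in the other wells (edgeR, log2 fold change 3.002, SE 0.30, adjusted p = 3.64e-05). Its relative Dmrta1 was higher as well (edgeR, log2 fold change 2.22, SE 0.45, adjusted p = 0.00519). Prdm8, a histone methyltransferase-like repressor that partners Bhlhe22, was at 19.2 and 52.6 (E11), 103.7 (E12), 59.7 and 88.8 (E13), and 48.3 and 18.4 (E15) CPM (edgeR, log2 fold change 2.69, SE 0.42, adjusted p = 7.59e-04). Mfap4 (2.76), Ppp1r14a (2.63), Rhbdl3 (2.63) and Rgs16, a brake on G protein signalling (2.15), completed the 12 largest positive fold changes, each on 7 of 7 plates. Rgs16, Mfap4, Prdm8 and Lhx5 each overlap a gene model on the other strand.

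**Figure D2:**
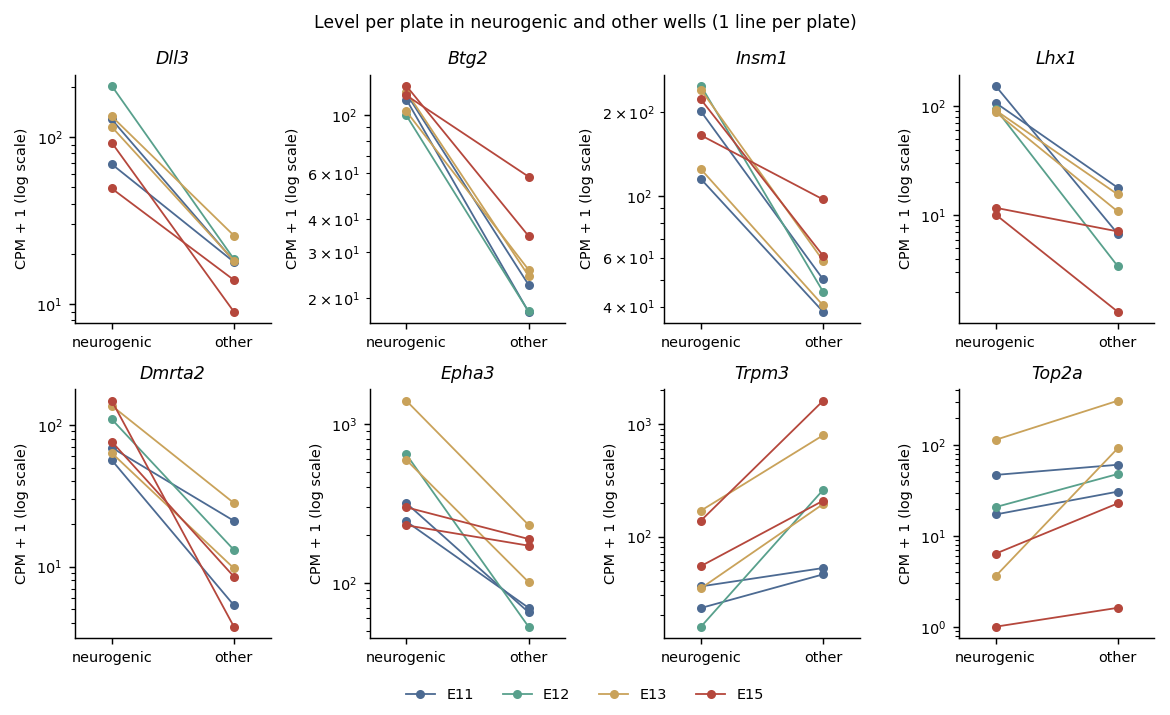
Level (CPM + 1, log axis) of 8 genes in neurogenic and other wells, 1 line per plate, coloured by embryonic day. Dll3, Btg2, Insm1, Lhx1, Dmrta2 and Epha3 fall from left to right on all 7 plates, and Trpm3 and Top2a rise on all 7.

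Proneural bHLH factors bind E-boxes, which read CANNTG. Their preferred forms are CAGCTG, a palindrome, and CAGATG on either strand, which reads as CATCTG on the other. The promoters of 3 of the genes above are shown because they hold different numbers of the preferred forms beside log2 fold changes of 2.69 (Dll3), 2.69 (Prdm8) and 2.18 (Btg2). Each is RefSeq sequence of GRCm38.p6 (the mm10 build), 250 bases before to 50 after the gene start that RefSeq's table gives, 5′ to 3′ on the gene's strand, with the preferred forms in capitals. They lie at chr7:28301736-28302035, minus strand (Dll3), chr5:98180619-98180918, plus strand (Prdm8) and chr1:134079106-134079405, minus strand (Btg2). The GENCODE M21 models of Dll3 and Prdm8 begin upstream of these windows (Prdm8 at base 98167198 of chromosome 5), which lie inside those models, and their GENCODE starts were not searched.
Dll3: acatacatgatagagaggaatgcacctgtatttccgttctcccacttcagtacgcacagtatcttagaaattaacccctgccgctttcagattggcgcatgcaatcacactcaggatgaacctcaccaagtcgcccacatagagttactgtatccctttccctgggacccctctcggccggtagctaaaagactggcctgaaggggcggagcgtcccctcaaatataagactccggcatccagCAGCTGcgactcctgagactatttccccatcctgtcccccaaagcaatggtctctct
Prdm8: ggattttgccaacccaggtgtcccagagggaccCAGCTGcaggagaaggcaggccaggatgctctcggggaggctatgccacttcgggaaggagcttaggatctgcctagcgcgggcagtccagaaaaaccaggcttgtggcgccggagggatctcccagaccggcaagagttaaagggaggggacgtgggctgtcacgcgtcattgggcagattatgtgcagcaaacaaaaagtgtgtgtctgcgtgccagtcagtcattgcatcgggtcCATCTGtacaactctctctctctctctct
Btg2: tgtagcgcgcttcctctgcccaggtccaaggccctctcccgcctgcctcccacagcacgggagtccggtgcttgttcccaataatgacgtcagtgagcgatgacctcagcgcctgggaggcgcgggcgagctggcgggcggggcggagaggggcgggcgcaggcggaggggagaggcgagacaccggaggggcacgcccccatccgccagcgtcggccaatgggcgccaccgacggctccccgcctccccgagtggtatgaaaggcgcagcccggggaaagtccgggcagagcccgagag

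The Dll3 window holds 1 CAGCTG, the Prdm8 window 1 CAGCTG and 1 CATCTG, and the Btg2 window neither. Over both strands, CAGCTG was in 16.3% of 32851 promoters of this length, CAGATG or CATCTG in 17.2%, and any CANNTG, which includes the others, in 72.3%. Of the 409 higher genes, 279 matched a promoter by symbol, with 429 promoters, of which 18.2% held CAGCTG, 13.3% CAGATG or CATCTG, and 60.8% any CANNTG. The letters were thus about as frequent, or less so, as in all promoters, and a match is a description of the sequence only.

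Transcripts of the G2 and M phases of the cell cycle were lower in the neurogenic wells. The 20 genes of the G2 and M phase list summed to 351 and 119 (E11), 192 (E12), 54.5 and 871 (E13), and 59.0 and 18.4 (E15) CPM in neurogenic wells. In the other wells they summed to 352 and 193 (E11), 276 (E12), 684 and 2572 (E13), and 175 and 20.0 (E15) CPM. The list was lower in neurogenic wells on 7 of 7 plates, with a mean log2 ratio of -1.15 and the smallest differences on E11 plate 1 and E15 plate 2 (exact two-sided sign-flip permutation test over 7 plates, p = 0.0156, the smallest that 7 plates allow). Without E13 plate 1 the mean was -0.74, and with the rule applied to wells thinned to 5000 UMIs it was -1.86 (exact p = 0.0625). Of the list's 20 genes, 6 were lower by edgeR (Ccna2, Ccnb2, Cdc20, Cdk1, Mki67 and Top2a) and 0 higher. Top2a, the topoisomerase of replicating cells, had a log2 fold change of -1.33 (SE 0.30), and Mki67, the proliferation marker, of -1.13 (SE 0.31). The number of lower genes was 1 without E13 plate 2, 2 without E13 plate 1 and 11 without E11 plate 1. With a plate left out, the threshold was missed by Ccna2 without E11 plate 2; Mki67 without E12 plate 1; Ccna2, Ccnb2, Cdc20 and Mki67 without E13 plate 1; Ccna2, Ccnb2, Cdc20, Cdk1 and Mki67 without E13 plate 2; Cdc20 and Mki67 without E15 plate 1, and Cdc20 without E15 plate 2 (adjusted p from 0.0509 to 0.38, edgeR). Few neurogenic wells held a division signature of their own: at 5000 UMIs, 0 to 4% had 5 or more UMIs of the list, against 0 to 37.5% of the other wells, and both maxima were on E13 plate 2.

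The S phase list did not pass its test. It summed to 358 and 340 (E11), 326 (E12), 283 and 577 (E13), and 209 and 156 (E15) CPM in neurogenic wells, and was lower than in the other wells on 5 of 7 plates (mean log2 ratio -0.30, exact two-sided sign-flip permutation p = 0.0625 over 7 plates). Of its 17 tested genes 1, Uhrf1, passed by edgeR, as lower. Among 12 cell cycle brakes and D cyclins, 3 were higher and 0 lower: Btg1 (0.92, SE 0.22), Ccng2 (0.81, SE 0.13), both associated with arrest, and Ccnd2, a G1 cyclin. Ccnd2 was at 574 and 876 (E11), 1146 (E12), 151 and 124 (E13), and 64.4 and 91.9 (E15) CPM, against 5.53 to 307 CPM in the other wells, and lower than them on E13 plate 2 only (edgeR, log2 fold change 1.79, SE 0.48, adjusted p = 0.0285). Calls were lost for Uhrf1, Btg1 and Ccnd2 without E11 plate 1 or E11 plate 2; Ccnd2 without E12 plate 1 or E15 plate 2, and Uhrf1 without E13 plate 2 (adjusted p from 0.0585 to 0.114, edgeR). Cdkn1c, a cyclin-dependent kinase inhibitor of cells leaving the cycle, had a log2 fold change of 0.047 (SE 0.13, adjusted p = 0.889 by edgeR).

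Unspliced transcripts, which come from recently transcribed or long intronic RNA, made up a larger share of the counts in neurogenic wells. The share, in percent, was 24.6 and 22.9 (E11), 22.3 (E12), 21.9 and 20.0 (E13), and 22.5 and 29.0 (E15). In the other wells it was 22.0 and 20.4 (E11), 21.8 (E12), 17.7 and 16.3 (E13), and 21.3 and 25.7 (E15). It was higher in neurogenic wells on 7 of 7 plates, by 2.59 percentage points on average (exact two-sided sign-flip permutation test over 7 plates, p = 0.0156). With the rule at 2 genes it was higher on 6 of 7 plates, by 1.44 points. The abundant netrin receptor gene Dcc, with 99.3% of its counts unspliced, was higher in neurogenic wells (values below). Its part in the difference was not tested. At 5000 UMIs a neurogenic well held fewer genes, with medians of 2501 to 2625 against 2570 to 2692, and on 7 of 7 plates the number was lower. Against the other wells it fell by 61.1 genes on average (exact two-sided sign-flip permutation test over 7 plates, p = 0.0156). With the rule at 2 genes the mean difference was -19 genes, and the number was higher on 1 plate (exact permutation p = 0.0625 over 7 plates).

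**Figure D3:**
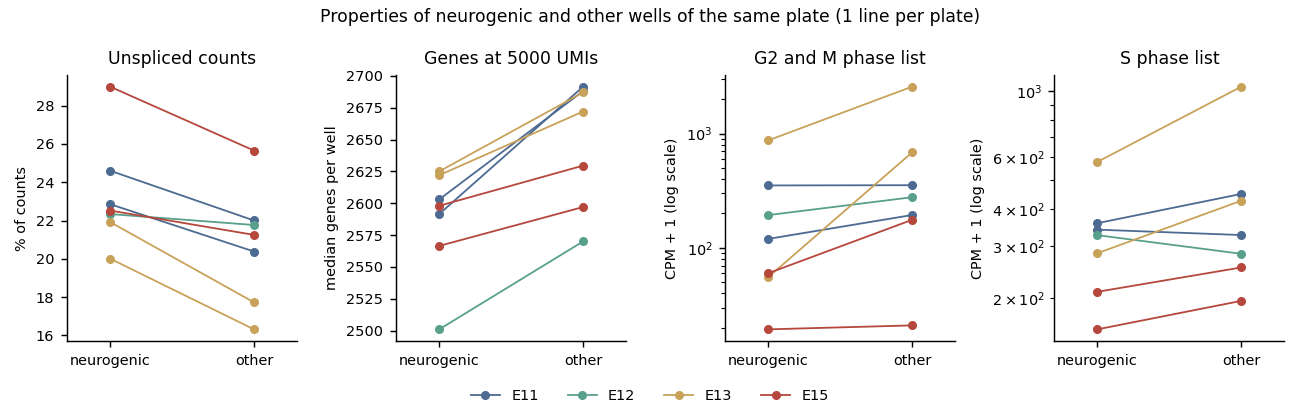
For each plate (1 line, coloured by embryonic day), the share of unspliced counts in percent, the median number of genes per well at 5000 UMIs, and the summed G2 and M phase and S phase lists (CPM + 1, log axes), in neurogenic and other wells. The unspliced share falls from left to right and the number of genes rises on all 7 plates, and the G2 and M phase list is lower in neurogenic wells on all 7.

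Of 20 postmitotic neuron genes, 3 were higher and 4 lower (median -0.24). The higher ones were Elavl2 (1.03, SE 0.16) and Elavl4 (0.51, SE 0.12), RNA-binding proteins that begin early in neurons, and Cntn2 (1.20, SE 0.22), an adhesion molecule of growing axons. The lower ones encode cytoskeletal proteins and their regulators. Mapt, which encodes tau, was at 958 and 702 (E11), 747 (E12), 677 and 335 (E13), and 279 and 451 (E15) CPM. The other wells held 2106 and 2116 (E11), 2126 (E12), 1234 and 449.9 (E13), and 663 and 1745 (E15) CPM. It was lower on 7 of 7 plates (edgeR, log2 fold change -1.25, SE 0.16, adjusted p = 2.19e-04), as was Stmn3 (-0.67, SE 0.12), while Nefl (-1.02, SE 0.28) and Tubb2a (-0.89, SE 0.19) were lower on 5 and 6. Without E13 plate 2, 10 of the 20 genes were lower. The line's reporter is named tauLacZ, and whether its transcripts add to the Mapt counts was not tested. The test was no longer passed by Nefl without E11 plate 1, E11 plate 2, E12 plate 1 or E13 plate 1 (adjusted p from 0.0791 to 0.0954, edgeR).

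The 12 largest negative fold changes on 7 of 7 plates included the channel genes Trpm3 and Kcnma1 and the collagen genes Col3a1, Col4a1 and Col4a2. Trpm3, a cation channel gene, was at 22.2 and 35.1 (E11), 14.8 (E12), 33.7 and 169 (E13), and 53.7 and 138 (E15) CPM. In the other wells it was at 45.2 and 51.5 (E11), 259 (E12), 194 and 795 (E13), and 208 and 1612 (E15) CPM, highest on E15 plate 2 (edgeR, log2 fold change -2.16, SE 0.29, adjusted p = 2.79e-04). Kcnma1, the large-conductance potassium channel, was at 98.5 to 497 against 306 to 2546 CPM (edgeR, log2 fold change -1.79, SE 0.18, adjusted p = 2.60e-05), and Nrg3, a neuregulin, at 48.3 to 485 against 190.1 to 1609 CPM (edgeR, log2 fold change -1.79, SE 0.24, adjusted p = 2.84e-04). Unspliced transcripts made up 97.0% of Trpm3, 85.3% of Kcnma1 and 98.6% of Nrg3 counts in neurogenic wells, so these values are mostly of intronic transcripts. Nwd2, Vstm2l, Syt9, Ablim3 and AW551984 had log2 fold changes from -2.21 to -1.78. The 4 others were Col4a1 (-2.55), Col3a1 (-2.40), Col4a2 (-1.81) and Vtn (-1.80), genes of basement membrane and mesenchyme. They went with the marker lists of other cell types: 5 of 8 vascular, 3 of 6 microglia, 4 of 4 mesenchyme and 3 of 4 ependymal and choroid genes tested were lower, and 0 of any of these lists higher. With the threshold at 2 of the 5 genes, the vascular genes Cldn5, Kdr and Flt1 had positive log2 fold changes (0.53, 1.43 and 1.19). Of the 8 red blood cell genes 0 could be tested, and 0 of 9 dissociation response genes passed in either direction. Without E13 plate 2, the lower genes were 3 vascular, 2 microglia, 3 mesenchyme and 0 ependymal and choroid ones, and without E11 plate 1 0 microglia genes were lower. AW551984, Col3a1, Col4a1, Col4a2, Nrg3 and Vstm2l did not pass with the threshold at 2 genes, with adjusted p from 0.0815 to 0.832 by edgeR. Of the higher and lower genes named by rule, the test was missed by Prdm8, Lhx5, Dmrta1, Col4a1, Ablim3, Trpm3, Col4a2, Vtn, Nrg3, Kcnma1 and Nwd2 without the plate block (adjusted p from 0.0584 to 0.726, edgeR). Syt9 did not pass without E13 plate 2 and E15 plate 2 (adjusted p = 0.129, edgeR).

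Radial progenitor genes were mixed. Of 16 tested, 2 were higher and 4 lower (median -0.21). Pax6, a progenitor factor that newborn neurons of some lineages keep, was at 187 and 436 (E11), 14.8 (E12), 146 and 48.3 (E13), and 193 and 589 (E15) CPM, and above the other wells on 5 of 7 plates (edgeR, log2 fold change 1.84, SE 0.43, adjusted p = 0.0131). Rspo3, a Wnt agonist of the dorsal diencephalon, was at 99.1 and 39.1 (E11), 429.7 (E12), 869.6 and 971 (E13), and 1627 and 1565 (E15) CPM. The level in other wells was 26.1 and 4.57 (E11), 85.9 (E12), 345 and 571 (E13), and 715 and 571 (E15) CPM (edgeR, log2 fold change 1.57, SE 0.18, adjusted p = 8.35e-05). The lower ones were Ddah1, Ednrb, Hmgb2 and Zfp36l1. With a plate left out, the threshold was missed by Ddah1 and Ednrb without E11 plate 1; Ddah1 without E11 plate 2; Hmgb2 without E13 plate 1, and Ednrb and Hmgb2 without E13 plate 2 (adjusted p from 0.0549 to 0.159, edgeR). Sox2, a defining factor of radial progenitors, had a log2 fold change of -0.33 (SE 0.27, adjusted p = 0.531 by edgeR).

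Among habenular and diencephalic identity genes, Barhl2 (1.07, SE 0.21) and Zic2 (0.78, SE 0.19) were higher by edgeR (values are log2 fold changes), and Lef1, Lmo3 and Nr4a2 were lower. Nr4a2, a nuclear receptor, was at 65.0 and 93.2 (E11), 119 (E12), 80.5 and 60.3 (E13), and 29.5 and 36.7 (E15) CPM against 90.7 to 403 CPM and lower on 7 of 7 plates (edgeR, log2 fold change -1.32, SE 0.23, adjusted p = 0.0018). Pou4f1 had a log2 fold change of -0.42 (SE 0.15, adjusted p = 0.105 by edgeR). Of 16 genes of developmental timing, 5 were higher (Igf2bp1, Igf2bp3, Nfib, Nr2f1 and Nr2f2) and 3 lower (Crabp1, Crabp2 and Hmga2). Nfib had a log2 fold change of 1.37 (SE 0.26) and Crabp1 of -0.66 (SE 0.20). Among 23 axon guidance receptors, 5 were higher and 3 lower (median 0.033). Epha3, an ephrin receptor, was at 243 and 317 (E11), 643 (E12), 593 and 1399 (E13), and 299 and 229.9 (E15) CPM. The other wells held 69.0 and 64.6 (E11), 52.2 (E12), 101 and 231 (E13), and 188 and 171 (E15) CPM, and neurogenic wells were higher on 7 of 7 plates (edgeR, log2 fold change 2.05, SE 0.28, adjusted p = 3.03e-04). Dcc, the netrin receptor, was at 6913 to 24339 against 2443 to 7672 CPM (edgeR, log2 fold change 1.67, SE 0.11, adjusted p = 5.18e-07). Of its counts, 99.3% in neurogenic and 99.3% in other wells were unspliced, so its value is mostly one of intronic transcripts. Unc5b (2.04, SE 0.42) and Unc5c (1.65, SE 0.39), receptors that turn netrin into a repellent, and Epha4 (1.10, SE 0.28) were higher on 6, 5 and 5 plates. The lower ones were Unc5d (-1.49, SE 0.27), of the same netrin receptor family, Ephb1 (-0.79, SE 0.13) and Cdh13 (-1.17, SE 0.32). Among the genes named above, Nfib, Nr2f2, Crabp2, Hmga2, Barhl2, Lmo3, Nr4a2, Epha3, Dcc, Unc5b, Unc5d and Ephb1 passed whichever single plate was left out. Calls of the others were each lost in at least 1 of the fits without E11 plate 1, E11 plate 2, E12 plate 1, E13 plate 1, E15 plate 1 or E15 plate 2 (adjusted p from 0.0505 to 0.221, edgeR).

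Within the neurogenic wells, Crabp1, Crabp2, Robo2 and the neurofilament gene Nefm fell with age, and Nfib, Rspo3, Nrp2 and Ptn rose. The slope per embryonic day over the 7 plates was tested for 7326 genes by edgeR, and 139 passed (1.9%), of which 61 rose (0.833%) and 78 fell (1.06%). The count was 59 without E11 plate 1, 67 without E11 plate 2, 82 without E15 plate 1, and 206 without E13 plate 2 and E15 plate 2. Slopes were also compared with those in the other wells of the same plates (below). In that test of a difference, Ptn and Nrp2 passed, and Crabp1, Crabp2, Robo2, Nefm, Nfib and Rspo3 did not. Sequencing run and stage cannot be told apart, since no label says which plates shared a run. The rule genes held by the wells also differed by stage. Neurog2 was in 24.4% and 20.6% of neurogenic wells at E11, 72.4% and 88.0% at E13, and 53.1% and 25% at E15. Ebf2 was in 86.0% and 86.6% of the other wells at E11, and 23.4% and 10.3% at E13. In the split below, with sides selected alike, Pou4f1, Stmn2, Gap43 and Tubb2a were lower with Neurog2. The part of this shift in the slopes was not tested.

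The steepest fall was that of Crabp1, which binds retinoic acid in the cytoplasm (chr9:54764748-54773110, plus strand). It was at 3391 and 2878 (E11), 128.3 (E12), 10.4 and 1.51 (E13), and 5.37 and 0 (E15) CPM, and the E11 values lay far above all others (edgeR, -4.16 log2 units per day, SE 0.29, adjusted p = 2.47e-05). Its relative Crabp2 fell too (-0.98 per day, SE 0.14). Tfap2b, an AP-2 transcription factor, was at 816 and 758 (E11), 813 (E12), 276 and 157 (E13), and 0 and 0 (E15) CPM, high through E12 and without a count at E15 (-1.47 per day, SE 0.23, adjusted p = 0.00426 by edgeR). Robo2, a Slit receptor, was at 1525 and 1477 (E11), 717 (E12), 499 and 209.6 (E13), and 56.4 and 82.6 (E15) CPM and fell at each stage (-1.11 per day, SE 0.10). The neurofilament gene Nefm was at 542 and 636 (E11), 163 (E12), 96.1 and 42.2 (E13), and 21.5 and 18.4 (E15) CPM (-1.33 per day, SE 0.12), and Nefl and Ina, its partners, fell as well. Onecut3 (-1.40), Greb1l (-1.38), S100a10 (-1.34) and the GDNF receptor gene Gfra1 (-1.10) completed the 8 steepest falls per day. The test was no longer passed by Nefl without E11 plate 1 or E15 plate 1 (adjusted p from 0.0719 to 0.084, edgeR).

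Of the rising genes, Nfib, a nuclear factor I gene that marks later-born neurons in several brain regions, was at 34.0 and 12.1 (E11), 462 (E12), 239 and 977 (E13), and 1867 and 1760.1 (E15) CPM (1.27 log2 units per day, SE 0.25, adjusted p = 0.0163 by edgeR). Ptn, which encodes the growth factor pleiotrophin, was at 5.91 and 5.40 (E11), 9.87 (E12), 90.9 and 223 (E13), and 839 and 303 (E15) CPM (1.499 per day, SE 0.19, adjusted p = 8.30e-04 by edgeR). Nrp2, a semaphorin receptor, was at 37.0 and 48.6 (E11), 198 (E12), 539 and 912 (E13), and 1159 and 772 (E15) CPM (1.06 per day, SE 0.20, adjusted p = 0.0158 by edgeR). Each was lower on both E11 plates than on any later plate. Ppp2r2b (1.14), Csmd1 (1.21), Dmrta1 (1.16), Rspo3 (1.04) and Rasgrp1 (1.31) were the others of the 8 steepest rises. Csmd1 counts were 98.8% unspliced. With a plate left out, the threshold was missed by Nfib, Nrp2, Rspo3 and Rasgrp1 without E11 plate 1; Nfib, Nrp2 and Rasgrp1 without E11 plate 2; Nfib and Nrp2 without E15 plate 1, and Rasgrp1 without E15 plate 2 (adjusted p from 0.0523 to 0.141, edgeR).

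Of the genes named by rule for the slope per day, the test was missed by Onecut3 with the rule at 4 genes; and Rasgrp1 and Nfib with the rule on thinned wells (adjusted p from 0.0548 to 0.0936, edgeR). Of the 22 genes of the neurogenic programme, 0 rose and 1, Onecut2, fell per day (median -0.035, 0.002 for all genes), with 2591 and 2479 (E11), 1098 (E12), 767 and 895 (E13), and 702 and 893 (E15) CPM. Between E11 and E13, 2 of the 22 rose (Eomes and Tbr1) and 3 fell (Ebf1, Ebf3 and Onecut2). Of 12 Notch pathway genes tested, 0 passed for the slope in either direction, and of 9 other bHLH factors 0. Among 20 guidance receptors, 4 rose (Dcc, Epha7, Nrp2 and Robo3) and 4 fell (Epha4, Epha5, Ephb2 and Robo2). Robo3, which lets commissural axons cross the midline, was at 51.8 and 47.2 (E11), 123 (E12), 213 and 109 (E13), and 352 and 515 (E15) CPM (0.76 per day, SE 0.088, adjusted p = 5.13e-04 by edgeR). Zic1, an identity gene, rose (0.34, SE 0.058), and 0 of 16 identity genes fell. Ccnd2 (-0.96, SE 0.18) and Cdkn1c (-0.44, SE 0.075) fell. Among the genes named above, Epha7, Robo3, Epha5 and Robo2 passed whichever single plate was left out. Calls of the others were each lost in at least 1 of the fits without E11 plate 1, E11 plate 2, E13 plate 1, E15 plate 1 or E15 plate 2 (adjusted p from 0.0523 to 0.197, edgeR).

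**Figure D4:**
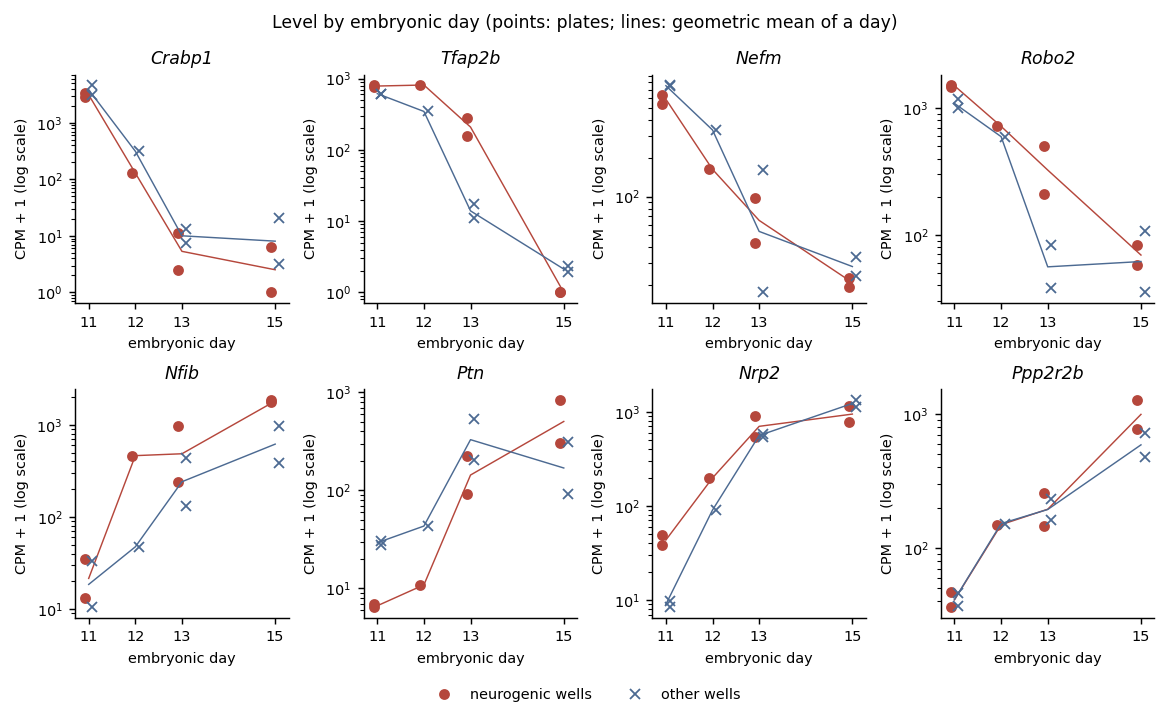
Level (CPM + 1, log axis) of 8 genes by embryonic day in neurogenic wells (circles) and the other wells of the same plates (crosses). Points are plates and lines join the geometric means of a day. Crabp1, Tfap2b, Nefm and Robo2 fall and Nfib, Ptn, Nrp2 and Ppp2r2b rise from E11 to E15 in neurogenic wells.

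More genes passed between E11 and E13 than between E13 and E15. The contrasts differ in precision, with 45 and 68 neurogenic wells on the E11 plates and 32 and 8 on the E15 plates. They also compare wells that met the rule through different genes at different stages (above). The part of that shift in the contrasts, falls of neuron and identity genes included, was not tested. By edgeR with the stage as a factor and 1 spread shared by all stages, 220 of 9338 genes passed (2.36%), 122 as higher at E13 (1.31%) and 98 as lower (1.05%). Leaving out E13 plate 1 raised the count to 452. Leaving out E13 plate 2 lowered it to 82, and the E11 plates 1 and 2 to 53 and 45. Eomes and Tbr1, T-box factors of glutamatergic neuron lineages, rose. Tbr1 was at 1.48 and 0 (E11), 306 (E12), 184 and 375 (E13), and 99.4 and 0 (E15) CPM, and Eomes at 1.48 and 0 (E11), 168 (E12), 23.4 and 154 (E13), and 18.8 and 27.5 (E15) CPM. Both were nearly absent at E11, and E15 plate 2 held 0 counts of Tbr1. With 1 pooled count at E11, the ratio of E13 to E11 was 433 (77.0 to 17130) for Tbr1 and 150.1 (26.4 to 5976) for Eomes, with counting intervals in parentheses (edgeR adjusted p = 4.10e-04 and 0.0047). Fezf1 (at 98.7 and 211 CPM at E13), a zinc finger factor, was at least 80.2-fold higher and Samd3 (at 51.9 and 154) at least 55.0-fold higher. These bounds take 3 counts pooled over the E11 plates in place of the 0 counted. Nfix, a nuclear factor I gene, was at least 32.0-fold higher and Spry1, a brake on growth factor signalling, at least 27.9-fold higher. Nfia and Nfib rose as well, by 4.59 (SE 0.67) and 4.71 (SE 0.59) log2 units. The test was no longer passed by Nfix and Spry1 without E11 plate 1; Eomes, Nfix, Spry1 and Nfia without E11 plate 2, and Eomes, Nfix and Spry1 without E13 plate 2 (adjusted p from 0.0602 to 0.303, edgeR). Of all genes named by rule for E11 to E13, higher or lower, the test was also missed by Calb2, Rgs5, Samd3, Abcc9 and Vwc2l by DESeq2; Barhl1 with the rule at 2 genes; Rgs5, Abcc9, Vwc2l and Sncg with the rule at 4 genes; and Abcc9 and Spry1 with the rule on thinned wells (adjusted p from 0.0653 to 1, by edgeR except where DESeq2 is named).

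Several genes that passed as higher at E13 were high on E13 plate 2. Calb2, which encodes the calcium buffer calretinin, was at 0 and 0 (E11), 0 (E12), 31.1 and 713 (E13), and 199 and 0 (E15) CPM, and in 34 of the 50 wells of that plate. Rgs5, a pericyte gene, stood at 15.6 and 437 CPM at E13, in 36 of the 50 wells of plate 2. Abcc9, another pericyte gene, was at 5.19 and 165 CPM there, in 28 of the 50. Ttr (0 and 686 CPM at E13) and Col3a1 (5.19 and 118 CPM) passed in the same direction. On that plate 13 of the 50 neurogenic wells held over 1000 CPM of the vascular, mesenchyme, ependymal and choroid markers together (median 810.3 CPM, highest 8971 CPM), and these 13 held 67.7% of the counts of these markers. Rgs5, Abcc9, Ttr and Col3a1 are genes of the vascular, choroid and mesenchyme cells whose markers were raised on that plate, and the part of those cells in the result was not tested. None of the genes named here passed with every plate left out in turn. Calls of the named genes were each lost in at least 1 of the fits without E11 plate 1, E11 plate 2, E13 plate 2, E15 plate 1 or E15 plate 2 (adjusted p from 0.0618 to 0.352, edgeR).

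Lower at E13 were Crabp1 (-9.28 log2 units, SE 0.44), Greb1l (-3.43, SE 0.35), Nefm (-3.19, SE 0.33), Fignl2 (-4.12, SE 0.51) and Sncg (-4.08, SE 0.67). Barhl1, a homeodomain factor of hindbrain and diencephalic neurons, was at 109.6 and 135 (E11), 0 (E12), 2.60 and 0 (E13), and 0 and 0 (E15) CPM. With 1 count at E13, its ratio of E13 to E11 was 0.00775 (0.000195 to 0.0438) (edgeR adjusted p = 3.45e-04). Vwc2l and Prss12, with 3 counts each at E13, had ratios of 0.0295 (0.00603 to 0.0883) and 0.0413 (0.00839 to 0.124). Of 20 neuron genes, 5 fell (Gap43, Ina, Nefl, Nefm and Syt1) and 0 rose (median -0.67, against 0.017 for all genes). Pou4f1 fell (-1.43, SE 0.34, adjusted p = 0.0428 by edgeR), with Irx5, Lef1, Lmo1 and Lmo3, 5 of 18 identity genes, while Gbx2 rose. In the neurogenic programme, Ebf1 (-1.78, SE 0.31), Ebf3 (-0.99, SE 0.22) and Onecut2 fell. Among the genes named above, Crabp1, Greb1l, Nefm, Fignl2, Barhl1 and Onecut2 passed whichever single plate was left out. Calls of the others were each lost in at least 1 of the fits without E11 plate 1, E11 plate 2, E12 plate 1, E13 plate 1, E13 plate 2, E15 plate 1 or E15 plate 2 (adjusted p from 0.0504 to 0.371, edgeR).

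From E13 to E15, 30 of 9338 genes passed by edgeR (0.321%), 18 as higher at E15 (0.193%) and 12 as lower (0.129%), and 828 passed at an unadjusted p of 0.05. The number was 17 without E15 plate 1, 10 without E15 plate 2 and 165 without E13 plate 1. Tfap2b, at 276 and 157 CPM at E13, had 0 counts at E15, where it was at least 32.2-fold lower (floor of 3 counts pooled over the E15 plates; edgeR adjusted p = 0.00151). Its relative Tfap2a, at 41.5 and 111 CPM at E13, had 1 count at E15, a ratio of 0.0242 (0.000606 to 0.138) with its counting interval. Lhx1 fell from 90.9 and 87.3 to 10.7 and 9.18 CPM (edgeR, log2 fold change -3.04, SE 0.50, adjusted p = 0.0171). Nr2f1, a nuclear receptor that patterns the forebrain, fell from 505 and 508 to 91.3 and 0 CPM (edgeR, log2 fold change -2.95, SE 0.47, adjusted p = 0.0157). The netrin receptor gene Unc5b (-3.16, SE 0.51) and the bHLH gene Bhlhe23 (-2.73, SE 0.45) also fell. The adhesion genes Sdk1 and Mdga2, with 3 counts each at E15, had ratios of 0.0634 (0.0129 to 0.191) and 0.0797 (0.0161 to 0.241). Of their counts in neurogenic wells, 90.4% and 93.0% were unspliced. With the rule at 2 genes the log2 fold change of Bhlhe23 was -0.54 and that of Mdga2 -0.15, and neither passed (adjusted p = 0.485 and 0.95 by edgeR).

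Megf11, a transmembrane gene of cell spacing, rose the most among those named, from 54.5 and 40.7 to 398 and 313 CPM (edgeR, log2 fold change 2.98, SE 0.30, adjusted p = 0.00151). Csmd1 rose from 52.0 and 149.7 to 638 and 829 CPM and Ppp2r2b, a phosphatase subunit gene, from 145 and 258 to 1273 and 772 CPM. The E13 and E15 plates did not overlap for any of these 3, which the rule for naming genes requires. Lhfpl3, Zfp536, Dscaml1, Pard3b and Dmrta1 rose by 2.09 to 2.67 log2 units, and of the guidance receptors Epha7 rose and Robo2 and Unc5b fell. Of the Lhfpl3, Zfp536, Dscaml1 and Pard3b counts in neurogenic wells, 93.0%, 74.0%, 85.7% and 87.7% were unspliced. Without E15 plate 1, 13 of the 16 genes named by the rule did not pass, and without E15 plate 2, 11. With any 1 plate left out, of the genes named here Megf11 and Nr2f1 passed. Calls of the others were each lost in at least 1 of the fits without E11 plate 2, E13 plate 2, E15 plate 1 or E15 plate 2 (adjusted p from 0.0582 to 0.318, edgeR). Under other settings, the genes named by rule for E13 to E15 that did not pass were Dmrta1 and Nr2f1 by DESeq2; Mdga2 and Bhlhe23 with the rule at 2 genes; Lhx1, Dmrta1, Ppp2r2b, Tfap2b, Tfap2a, Sdk1, Mdga2 and Unc5b with the rule at 4 genes; Mdga2 and Bhlhe23 with the rule on thinned wells; and Tfap2a with the replicate number as a block (adjusted p from 0.0574 to 0.95, by edgeR except where DESeq2 is named). Of the neurogenic programme, Notch pathway, other bHLH and neuron lists, 0 genes passed in either direction.

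Whether the slope per day in neurogenic wells differed from that in the other wells was tested by the day by class term in edgeR, with the plate as a block. Of 12034 genes, 41 passed (0.341%), 13 with a higher slope in neurogenic wells (0.108%) and 28 with a lower one (0.233%). The count was 18 without E11 plate 1, 20 without E11 plate 2 and 64 without E13 plate 2, and 44 by DESeq2. Without the block it was 0 by edgeR, with 389 genes at an unadjusted p under 0.05. Ptn rose by more in neurogenic wells: the other wells were at 29.8 and 26.8 (E11), 42.3 (E12), 201 and 536 (E13), and 309 and 91.7 (E15) CPM, with their maximum at E13, beside the neurogenic values above (difference 1.12 log2 units per day, SE 0.12, adjusted p = 2.21e-04 by edgeR). Csmd1 did as well (0.80, SE 0.12, adjusted p = 0.00394 by edgeR). Onecut2, of the neurogenic programme, fell by less in neurogenic wells, with 2957 and 3035 (E11), 1447 (E12), 595 and 149 (E13), and 189 and 138 (E15) CPM in the other wells (0.67, SE 0.13).

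The slope was lower in neurogenic wells for Neurod1 (-0.65, SE 0.093, adjusted p = 0.00237 by edgeR) and Neurod2 (-1.68, SE 0.21). Neurod2, a late bHLH factor, was at 1.48 and 6.75 (E11), 74.1 (E12), 31.2 and 46.7 (E13), and 118 and 82.7 (E15) CPM in neurogenic wells. In the other wells it was at 0.222 and 0 (E11), 1.54 (E12), 0.727 and 4.92 (E13), and 124 and 70.7 (E15) CPM. The neurogenic wells were higher than the other wells on 6 of 7 plates, all but E15 plate 1. The same sign held for Nrp2 (-0.64), Epha4 (-0.70) and Unc5b (-1.23), and for Sdk2 (-1.10) and the LIM-domain gene Lmo1 (-1.06). Lmo1 was at 119.8 and 136 (E11), 109 (E12), 49.3 and 30.1 (E13), and 93.9 and 73.4 (E15) CPM in neurogenic wells and rose to 418 and 248 CPM at E15 in the others. Trhde (442 CPM) and Chrm3 (257 CPM) had positive terms. These levels are those on E15 plate 2, from counts in 2 and 3 of its 8 wells. Without that plate their terms were 0.90 and 0.83 and did not pass (adjusted p = 0.534 and 0.176 by edgeR). The terms of Hs6st3 and Cntn4 were positive, and those of Sulf1 and Notch1 negative. Of the Trhde, Chrm3, Hs6st3 and Cntn4 counts in neurogenic wells, 93.7%, 94.2%, 100% and 95.5% were unspliced. Of the genes named here as passing, Ptn, Csmd1, Neurod1, Neurod2 and Unc5b passed with any 1 plate left out. Calls of the others were each lost in at least 1 of the fits without E11 plate 1, E11 plate 2, E13 plate 1, E13 plate 2, E15 plate 1 or E15 plate 2. Adjusted p by edgeR ran from 0.0509 to 0.694. The highest was that of Trhde in the fit without both E13 plate 2 and E15 plate 2. Of the 12 genes named by rule for this term, those that did not pass under other settings were Trhde and Sulf1 by DESeq2; Unc5b, Trhde, Chrm3, Hs6st3, Cntn4, Sulf1, Neurod2, Notch1 and Sdk2 with the rule at 2 genes; Hs6st3, Neurod2 and Notch1 with the rule at 4 genes; and Trhde, Chrm3, Hs6st3, Cntn4 and Notch1 with the rule on thinned wells (adjusted p from 0.0619 to 1, by edgeR except where DESeq2 is named).

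The neurogenic wells were split by Neurog2, itself one of the 5 rule genes, which had a count in 123 of them. A well with Neurog2 met the rule with 2 of the other 4 genes and a well without it needed 3, so the sides were selected differently. Calls under the rule as it stands therefore compare unlike selections and are given as a description. The split was also fitted on wells with at least 3 of the other 4 genes on both sides, an alternative chosen after seeing the data, which keeps 6 to 18 wells with Neurog2 and 6 to 54 without it per plate. Both used the 6 plates with at least 5 wells on each side, leaving out E15 plate 2. In the second fit the 5 rule genes, Neurog2 included, still summed to more with Neurog2 on every plate used. The sums were 1765 against 1708 CPM on E11 plate 1, for example, and 2907 against 1203 CPM on the E12 plate. The part of this difference in the split was not tested. With the sides selected alike, Dmrta2, Ptprk, Epha3, Pax6, Barhl1 and Hs6st3 were among the genes higher with Neurog2, and Pou4f1, Stmn2, Tfap2d, Tppp3, Gap43, Tubb2a, Nrg3 and Lhx2 among those lower (values below). Nearly all Barhl1 counts came from the E11 plates.

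The level of the G2 and M phase list depended on that selection. Under the rule as it stands it was higher with Neurog2 on 6 of 6 plates, at 1152 and 426 (E11), 232 (E12), 59.7 and 934 (E13), and 75.6 (E15) CPM with Neurog2. Without Neurog2 it was at 40.96 and 36.0 (E11), 108 (E12), 29.9 and 375 (E13), and 40.2 (E15) CPM. With 3 of the other 4 genes on both sides, the wells with Neurog2 were at 35.1 and 45.1 (E11), 78.8 (E12), 47.0 and 295 (E13), and 38.2 (E15) CPM, above the same wells without Neurog2 on 2 of 6 plates. Few wells had more than a few UMIs of the list at E11: at 5000 UMIs, 1 of 38 and 1 of 57 neurogenic wells of the E11 plates had 5 or more. The vascular and mesenchyme lists moved with it on E13 plate 2. Under the rule as it stands, the vascular list was at 708 CPM with and 188 CPM without Neurog2, and the mesenchyme list at 199 and 53.6 CPM. With the sides selected alike these were 138 and 188 CPM, and 55.2 and 53.6 CPM. Under the rule as it stands, the ependymal and choroid list was nearly level on that plate, at 735 CPM with and 698 CPM without Neurog2. The microglia and red blood cell lists were lower with Neurog2 there, at 22.0 against 53.6 CPM and 1.70 against 13.4 CPM. Wells with a Neurog2 count were deeper on 5 of the 6 plates (median counts of 14660.3 against 11182 on E11 plate 1, for example), and the part of depth and of these cell types in the split was not tested.

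By edgeR with the plate as a block, 34 of 5914 genes passed under the rule as it stands (0.575%), 20 as higher with Neurog2 (0.338%) and 14 as lower (0.237%). With the sides selected alike, 24 of 4095 genes passed (0.586%), 14 as higher and 10 as lower, and 14 genes were called in both fits. Under the rule as it stands the number was 0 without E11 plate 1 by edgeR, with 407 genes at an unadjusted p under 0.05. It was 11 without E11 plate 2, 4 without E13 plate 2, 20 without E15 plate 1, 55 without E13 plate 1, and 9 by DESeq2 (3 higher and 6 lower). Without the plate block it was 0 of 4079 by edgeR, with 202 genes at an unadjusted p under 0.05. Top2a, Ube2c and Hist1h2ap passed as higher with Neurog2 under the rule as it stands, and did not pass the filter on low counts with the sides selected alike, nor did Mab21l1, which was lower (-1.77, SE 0.39). Sox2 and Sim1 passed as higher under the rule as it stands (2.26, SE 0.50, and 3.38, SE 0.67) and did not pass with the sides selected alike (log2 fold change 1.20, adjusted p = 0.617 for Sox2, and 3.49, adjusted p = 0.121 for Sim1, by edgeR).

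Dmrta2 was at 234 and 236 (E11), 131 (E12), 62.8 and 144 (E13), and 126 (E15) CPM with Neurog2. Without it, Dmrta2 was at 4.10 and 6.85 (E11), 61.7 (E12), 59.7 and 67.1 (E13), and 17.2 (E15) CPM, a difference that was close to 0 on E13 plate 1 (edgeR, log2 fold change 3.17, SE 0.51, adjusted p = 0.00619). With the sides selected alike its log2 fold change was 3.05 (adjusted p = 0.0277 by edgeR). Ptprk (2.96, SE 0.47), a receptor tyrosine phosphatase, and Epha3 (1.67, SE 0.31), the last on 5 of 6 plates, were higher with Neurog2, and passed with the sides selected alike (2.92 and 1.80, adjusted p = 0.0277 for each by edgeR).

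Of 16 identity genes, 3 were lower with Neurog2 under the rule as it stands (Lhx9, Pou4f1 and Tcf7l2) and 0 higher, and of 20 neuron genes 1, Stmn2, was lower. With 1 plate left out in turn, 0 to 4 identity genes and 0 or 1 neuron genes were lower. Tcf7l2 was at 2080 and 3211 (E11), 2971 (E12), 3059 and 1695 (E13), and 4268 (E15) CPM with Neurog2. Without it, Tcf7l2 was at 4789 and 4921 (E11), 4209 (E12), 4033 and 4754 (E13), and 6313 (E15) CPM, higher on 6 of 6 plates (edgeR, log2 fold change -0.78, SE 0.13, adjusted p = 0.00619). With the sides selected alike neither it (-0.67, adjusted p = 0.1) nor Lhx9 (-0.70, adjusted p = 0.128) passed by edgeR. Pou4f1 (-0.84, SE 0.17) and the axonal gene Stmn2 (-0.45, SE 0.10) were lower on 6 of 6 plates, and passed with the sides selected alike (-0.99, adjusted p = 0.0277 for Pou4f1 and -0.76, adjusted p = 0.0277 for Stmn2, by edgeR). In that fit 2 of 14 identity genes, Pou4f1 and Lhx2, and 3 of 20 neuron genes, Stmn2, Gap43 and Tubb2a, were lower, and 0 of either list higher.

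Other genes that passed with the sides selected alike are named after their values were seen. The homeobox gene Barhl1 (log2 fold change 3.0142, adjusted p = 0.0102) and the sulphotransferase gene Hs6st3 (2.32, adjusted p = 0.0277) were higher by edgeR, and passed under the rule as it stands as well. Of the 175.39 Barhl1 counts in neurogenic wells, 174.39 were on the E11 plates. Its result thus rests on those plates, which had 6 and 10 wells with Neurog2 in that fit. Pax6, a paired-box factor of neural progenitors (1.56, adjusted p = 0.00599), was higher, and the axonal growth gene Gap43 (-1.0025, adjusted p = 0.0277), the tubulin gene Tubb2a (-1.17, adjusted p = 0.0335), Nrg3 (-1.34, adjusted p = 0.0277) and the LIM factor Lhx2 (-1.53, adjusted p = 0.0335) were lower by edgeR. These 5 did not pass under the rule as it stands, with adjusted p from 0.0543 to 0.42 by edgeR.

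Tfap2d (-2.32, SE 0.40) and Tppp3 (-1.04) were lower with Neurog2 in both fits (-2.69, adjusted p = 0.00599 for Tfap2d and -1.35, adjusted p = 0.0451 for Tppp3 with the sides selected alike, by edgeR). Tac1, the precursor of substance P, Ripor2, Vav3 and Robo2 passed as lower under the rule as it stands (-1.77, -1.09, -0.93 and -0.76), with adjusted p from 0.12 to 0.331 by edgeR with the sides selected alike. Of the neurogenic programme, Notch pathway and other bHLH lists, 0 genes passed in either direction under the rule as it stands, with medians of -0.022, 0.46 and -0.044 against 0.016 for all genes. Under the rule as it stands, none of the genes named here passed with every plate left out in turn. Calls of the named genes were each lost in at least 1 of the fits without E11 plate 1, E11 plate 2, E12 plate 1, E13 plate 1, E13 plate 2 or E15 plate 1 (adjusted p from 0.0529 to 0.381, edgeR). The fit with the sides selected alike was not run with a plate left out.

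**Figure D5:**
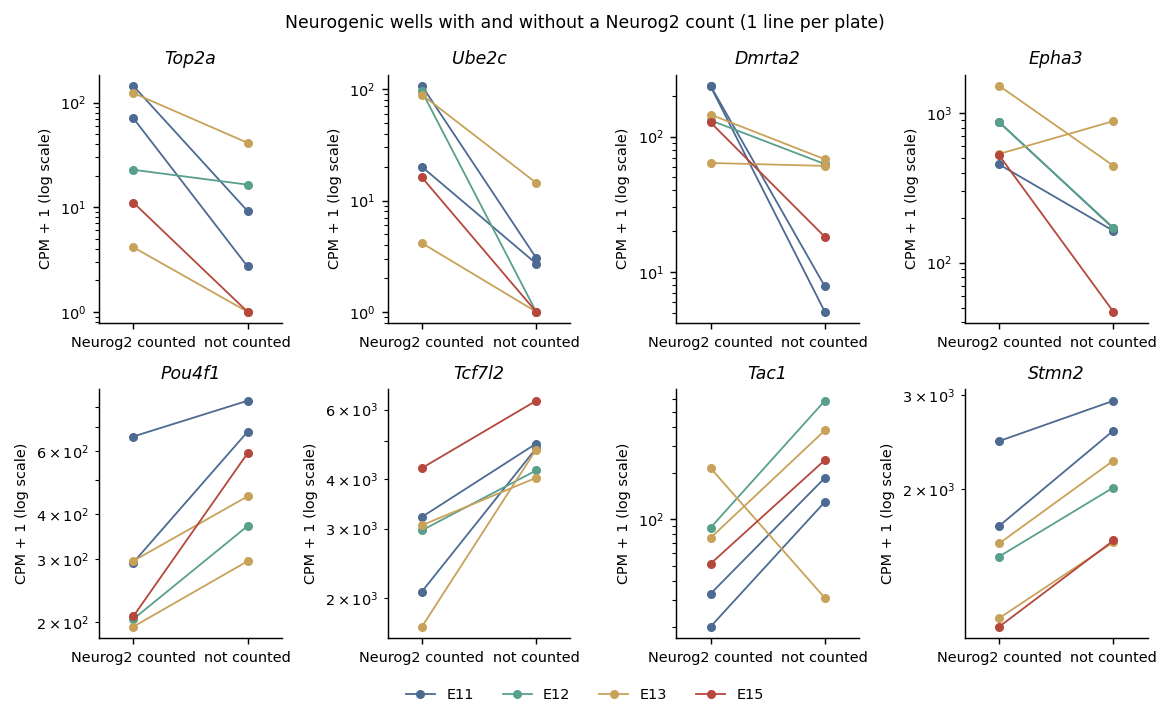
Level (CPM + 1, log axis) of 8 genes in neurogenic wells with and without a Neurog2 count under the rule as it stands, 1 line per plate for 6 plates, coloured by embryonic day. Top2a and Ube2c are higher with Neurog2 on every plate shown, though with sides that were selected differently, and Pou4f1, Tcf7l2 and Stmn2 are lower on every plate shown.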

How the data were processed

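Counts of 384-well Cel-seq2 plates were analysed from 7 plates of the Brn3a-tauLacZ line at E11, E12, E13 and E15. Reads were trimmed with Trim Galore and aligned to mm10 with STAR 2.5.3a, per the submitters' processing notes, while the sources used here do not give the counting tool, annotation or strand setting. The deposited values are expected counts: each inverts to a whole number n of UMIs as ln(1 − n/4096)/ln(1 − 1/4096), the correction of the authors' files for 4096 possible UMIs (all values within a tolerance of 1e-06). A second deposited table of expected counts holds unspliced transcripts. The planned design assumed counts, so sums per plate were rounded first.

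A well was kept with 1000 or more counts after removal of ERCC and mitochondrial rows, 500 or more genes detected, and a mitochondrial share of 20% or less. No doublet caller was run, and 0 neurogenic wells and 30 others exceeded 3 times their plate's median count. Members and gene lists were chosen with earlier results of these data known. Sums were tested with edgeR 4.0.16 (TMM, filterByExpr, quasi-likelihood test, adjusted p of 0.05), with DESeq2 1.42.0 as an alternative, in R 4.3.3. That edgeR test gives no SE. Each SE printed with it is the absolute log2 fold change or slope divided by the square root of the test's F statistic. The script was tested on simulated data. CPM are counts per 1e6 counts of a class on a plate. For wells, plate values were compared by exact sign-flip tests. Sums per plate limit the precision at E12 and on E15 plate 2, with 20 and 8 neurogenic wells.

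Genes were named by rule: the 12 largest fold changes per direction between classes, the 8 per direction for stages and 6 for the interaction and the Neurog2 split, among genes past the threshold with a mean of at least 20 CPM. The sign had to repeat on all plates between classes, and plate values could not overlap between stages. Genes of the lists were named beside them. Coordinates are of GENCODE M21 (GRCm38, which is mm10). Alternatives were DESeq2's size factors, no filter on low counts, recovered UMIs, no deep wells, thresholds of 2 and 4 genes, thinned wells, other wells with none of the 5 genes, the replicate or plate block, and each plate left out. Leaving out both E13 plate 2 and E15 plate 2, and asking 3 of the other 4 genes of both sides of the Neurog2 split, were chosen after seeing the data. Some results of the identity list are not reported here.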

Additional observations from a re-analysis of the deposited data

Results flagged for a closer look

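The slope per embryonic day differed between neurogenic and other wells for 41 of 12034 genes by edgeR's day by class term with the plate as a block. Of these, 13 had the higher slope in neurogenic wells.

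Wells on plates outside the compared stages also met the rule. On plate 1 of the Brn3a-tauLacZ line at E18, 33 of 267 kept wells (12.4%) had at least 3 of the 5 genes, while on plate 2 of that stage 0 of 110 did. On the E18 plates of the other line, 3 to 12 wells a plate met it. On the postnatal and adult plates 1 well of all kept wells did, on P7 plate 2.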

How the results depend on the processing

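No well value reversed its direction under the alternatives run, nor did a gene named by rule, while that of Hes5, a list gene, reversed against wells with none of the 5 genes (log2 fold change -0.065), and those of Ddah1, Cldn5, Kdr and Flt1 between classes and of Lmo1 from E11 to E13 reversed at a threshold of 2 genes (0.035, 0.53, 1.43, 1.19 and 0.14). Genes higher or lower in neurogenic wells numbered 327 with a threshold of 2 of the 5 genes (207 higher and 120 lower), 110 with no replicate block (84 and 26), and 587 to 1068 with a plate left out; more were lower than higher in the reported fit, and DESeq2 gave 441 higher and 406 lower. Genes with a slope per day numbered 227 by DESeq2 (118 rising and 109 falling), 473 with no filter on low counts, 270 at a threshold of 2 genes, and 59 to 183 with a plate left out. Between E11 and E13 the counts were 114 by DESeq2, 567 with no filter, 650 at 2 genes, 142 at 4 genes, and 45 to 452 with a plate left out. Between E13 and E15 they were 233 with no filter (98 higher at E15 and 135 lower), 108 at 2 genes (43 and 65), 115 with the rule on thinned wells (46 and 69), and 10 to 165 with a plate left out (69 and 96 without E13 plate 1), against 18 higher and 12 lower as reported. For the day by class term they were 125 with no filter, 8 at 2 genes, 0 with no replicate block, and 18 to 64 with a plate left out. For the Neurog2 split they were 9 by DESeq2 (3 higher and 6 lower), 24 with 3 of the other 4 genes asked of both sides, 96 with no filter, 0 with no replicate block (202 at an unadjusted p under 0.05 by edgeR), and 0 to 55 with a plate left out. The number of genes per well fell by 19 at a threshold of 2 genes (exact permutation p = 0.0625 over 7 plates, higher on 1 plate), and the unspliced difference was 1.44 points there, from 2.59. The mean log2 ratio of the G2 and M phase list was -2.28 at 4 genes and -1.86 on thinned wells, where it was above 0 on 2 plates. With a plate left out, the unspliced difference was 2.32 to 2.93 points, genes per well fell by 54.7 to 66.25, and the log2 ratio of the G2 and M phase list was -1.34 to -0.74. The cause of these changes was not tested. With the labels' replicate number as a block, 157, 193 and 32 genes passed for the slope, E11 to E13 and E13 to E15. Between stages, the differences of plate 1 from plate 2 had correlations of 0.0147 (E11 and E13), -0.0535 (E11 and E15) and -0.116 (E13 and E15) over 8685 genes. These values rest on sums of as few as 8 wells. They cannot decide whether same-numbered plates shared a litter or a run. Precision is limited by the 8 neurogenic wells of E15 plate 2 and the single E12 plate.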
